A study of Mus musculus with 24 samples.

Results

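Gene expression before adipocyte differentiation was compared between cells that carried the NFIA mutant Δpro#3 and cells labelled Cre. The comparison took the 3 libraries Cre + NFIA Δpro#3 at day 0 and the 3 libraries Cre at day 0, 6 of the 24 libraries of the series, and matched genes by symbol. It covered the genes of at least 200 bases with at least 1 FPKM (fragments per kilobase of gene per 1000000 counted fragments) in at least 3 of these 6 libraries, which were 11167 of the 24825 genes listed. All groups were stromal vascular fraction cells of inguinal white fat (ingSVF) of Nfia flox/flox mice, in which loxP sites enclose exon 2 of Nfia, and all were immortalised with SV40 large T antigen from a retrovirus. At day 0 there were 4 groups of 3 libraries. Cells called ctrl received an empty retrovirus and those called Cre a Cre retrovirus. Both other groups received Cre and then a second retrovirus with a FLAG-tagged protein, either full-length NFIA (Cre + NFIA) or the mutant, which is missing a proline-rich segment near the C-terminus (Cre + NFIA Δpro#3), so the level of the added protein was not set by the native gene. No empty second retrovirus is described for the Cre or ctrl cells. In the comparison with Cre the mutant protein and a second infection therefore cannot be told apart. In the comparison with ctrl neither can be told apart from Cre and its removal of the floxed exon. Day 0 is the state before the differentiation cocktail. Whether the 3 libraries of a group came from separate cultures is not given in the sources used here, and if they did not, the p-values measure only the spread between libraries.

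NFIA belongs to the nuclear factor I family, which also holds NFIB, NFIC and NFIX. The proteins bind DNA as dimers through a conserved N-terminal domain, and the C-terminal part carries the transactivation activity, in which the proline-rich segment lies. In fat tissue NFIA is known to promote the gene programme of brown and beige adipocytes together with PPARγ. Adipocyte precursors are fibroblast-like cells that secrete collagens and other matrix proteins. When they are induced to differentiate, C/EBPβ and C/EBPδ come first and PPARγ and C/EBPα follow, whereas Dlk1 and Wnt signals are known to hold the cells in the precursor state. The comparison at day 0 asks how precursors that received the mutant differ from Cre cells before any inducer is given.

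The libraries held 12.29 to 12.77 M recovered reads (M, 1000000) in the mutant group and 7.73 to 10.16 M in the Cre group, so the groups did not overlap in depth. A count of 3 reads, taken as the floor, was 0.235 to 0.388 reads per 1000000, and this floor covers counting error only. Of 9 fibroblast markers 8 were tested, and 2 of these were higher and 4 lower with the mutant at an adjusted p under 0.05 (limma). Col1a1, the most abundant, averaged 865 FPKM in the mutant group and 1150 FPKM in the Cre group, and Vim 663 and 564 FPKM. Lum had at most 2 reads in any of the 6 libraries. The sum of the 9 was 2660 to 2760 FPKM in the mutant and 2730 to 3460 FPKM in the Cre libraries. Of 8 macrophage markers, Ptprc, Adgre1, Itgam and C1qa had at most 1 read, and the sum of the 8 was 19.9 to 22.1 FPKM in the mutant and 12.9 to 14.5 FPKM in the Cre libraries. Of the 4 tested, 2 were higher and 0 lower with the mutant at an adjusted p under 0.05 (limma). Csf1r averaged 3.23 FPKM in the mutant and 1.13 FPKM in the Cre group, and Cd14 7.75 and 3.49 FPKM. Of 7 endothelial markers, Pecam1, Cdh5, Cldn5 and Emcn had at most 3 reads, and the sum was 5.17 to 5.59 FPKM against 5.89 to 6.70 FPKM. Mural markers summed to 7.19 to 8.01 FPKM in the mutant and 10.0 to 13.1 FPKM in the Cre libraries, with Kcnj8 and Abcc9 at 0. The sums of mesothelial (at most 2.84 FPKM), Schwann (at most 2.59 FPKM), lymphocyte (at most 0.184 FPKM) and epithelial (at most 0.0778 FPKM) markers were low in every library. The part of these markers in the results was not tested, and in bulk RNA fewer cells of a type and less RNA per cell cannot be told apart.

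Nfia was the gene with the largest change. It lies on the plus strand of chr4:97439425-97868605 (mm9, GENCODE vM1, the build also of the other gene positions given). Its level was 61.7, 59.7 and 60.7 FPKM in the 3 mutant libraries and 6.81, 5.34 and 6.49 FPKM in the 3 Cre libraries, a difference of 3.10 ± 0.07 on the log2(FPKM + 1) scale (SE; limma, adjusted p = 2.85e-12). The ctrl libraries were at 6.47 ± 0.264 FPKM (SD, n = 3), a level within the range of the Cre libraries. The gene-level value counts the whole gene of 9643 bases, of which the floxed exon is a small part, so it does not check the Cre label. For the same reason it adds reads of the transgene to those of the native gene. Full-length NFIA cells held 72.4 ± 2.63 FPKM, so that the mutant libraries were lower than the full-length libraries (log2 difference −0.25, adjusted p = 0.0428). Of the other family members, Nfix was at 57.5, 59.1 and 58.7 FPKM in the mutant libraries, against 63.6, 79.7 and 74.5 FPKM in Cre (−0.30, adjusted p = 0.0102), and Nfib at 1.49 ± 0.136 against 2.22 ± 0.225 FPKM (−0.37, adjusted p = 0.0375). Nfic was at 60.3 ± 1.7 and 66.7 ± 10.3 FPKM and did not pass (adjusted p = 0.386). Of Nfib and Nfix, 0 passed without Cre replicate 2 and 1 without Cre replicate 3 or any 1 mutant library.

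Many genes changed with the mutant, most of them by little. At an adjusted p under 0.05 (limma on log2(FPKM + 1), Benjamini-Hochberg over 11167 genes), 2362 genes passed, which is 21.2% of those tested. Of these, 1249 were higher (11.2%) and 1113 were lower (9.97%) with the mutant. The change was under 1.5-fold for 1931 of them (81.8%), and the median size was 0.366 on the log2 scale. At least 2-fold were 69 genes (0.618%), 28 higher (0.251%) and 41 lower (0.367%). At least 3-fold were 11 genes (0.0985%), 3 higher (0.0269%) and 8 lower (0.0716%). These folds are taken on the log2(FPKM + 1) scale, which understates the change of genes with low values. The count at 3-fold was 36 with a pseudocount of 0.1 and 4 with a pseudocount of 5. A gene could enter the test through a single group, and then the direction of its difference is in part set by the filter. Igf2, Dlk1, Lgr5, Mgp and Bend5, among others, entered through the Cre libraries alone. Foxf2, Orm3, Itgb7 and AA467197, among others, entered through the mutant libraries alone.

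**Figure D1:**
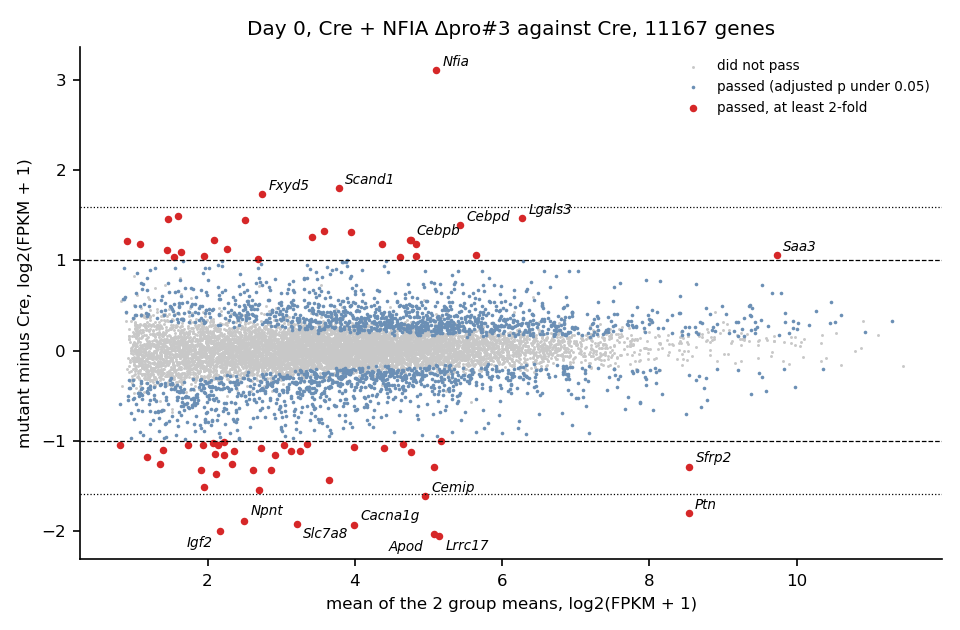
Each point is 1 of the 11167 genes tested; the x axis is the mean of the 2 group means as log2(FPKM + 1), the y axis is the difference mutant minus Cre at day 0 on the same scale, grey points did not pass, blue points passed, red points also changed at least 2-fold, and dashed and dotted lines mark 2-fold and 3-fold. Nfia stands apart at 3.10, and below the lower dotted line lie 8 genes from Cemip (−1.61) to Lrrc17 (−2.05).

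The 8 genes that fell at least 3-fold were Lrrc17, Apod, Igf2, Cacna1g, Slc7a8, Npnt, Ptn and Cemip. Ptn encodes pleiotrophin, a heparin-binding growth factor, and lies on chr6:36665663-36761361 (minus strand). It was read at 153, 157 and 184 FPKM in the mutant libraries, against 574, 612 and 533 FPKM in Cre, a difference of −1.80 ± 0.09 (adjusted p = 6.15e-09). It was the most abundant of the 8 in both groups. Lrrc17, a secreted leucine-rich repeat protein (chr5:21049345-21081718, plus strand), was at 11.5, 12.5 and 14.5 FPKM in the mutant libraries, against 56.4, 62.5 and 49.7 FPKM in Cre, a difference of −2.05 ± 0.10 (adjusted p = 5.85e-09). Apod, the lipid-binding apolipoprotein D (chr16:31296278-31314894, minus strand), was at 9.9, 12.8 and 14.1 against 51.9, 64.3 and 43.6 FPKM (−2.03 ± 0.16, adjusted p = 1.48e-06). In each of the 3 genes the highest mutant library was far below the lowest Cre library.

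Igf2, the insulin-like growth factor II gene (chr7:149836673-149852721, minus strand), was at 0.797, 0.647 and 0.986 FPKM in the mutant libraries, against 6.02, 6.11 and 6.44 FPKM in Cre. The Cre mean was 7.64 times the mutant mean in FPKM, and the fitted difference was −1.99 ± 0.10 (adjusted p = 6.15e-09). It was counted with 36 to 57 reads per mutant library, so the fall does not rest on values at the floor. Cacna1g encodes a pore subunit of T-type calcium channels (chr11:94269705-94335414, minus strand), and its level was 5.36, 5.43 and 6.03 FPKM in the mutant libraries, against 21.4, 24.4 and 26.9 FPKM in Cre (−1.93 ± 0.09, adjusted p = 6.15e-09). Slc7a8, an amino acid transporter gene (chr14:55341053-55400723, minus strand), was at 2.58, 3.17 and 2.91 against 13.5, 13.7 and 13.7 FPKM (−1.91 ± 0.09, adjusted p = 5.85e-09). In both genes the mutant and Cre libraries were far apart and close within each group. Npnt encodes nephronectin, a basement membrane ligand of an integrin (chr3:132544709-132613255, minus strand), and it was at 1.52, 1.48 and 1.22 FPKM in the mutant libraries, against 8.2, 8.76 and 6.78 FPKM in Cre (−1.89 ± 0.10, adjusted p = 1.68e-08). Cemip, whose product takes part in hyaluronan breakdown, was at 15.2, 14.4 and 13.3 against 49, 42.9 and 45.7 FPKM, the smallest of the 8 changes (−1.61 ± 0.07, adjusted p = 3.51e-09). Cemip passed but was under 3-fold when Cre replicate 1 or mutant replicate 3 was left out.

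**Figure D2:**
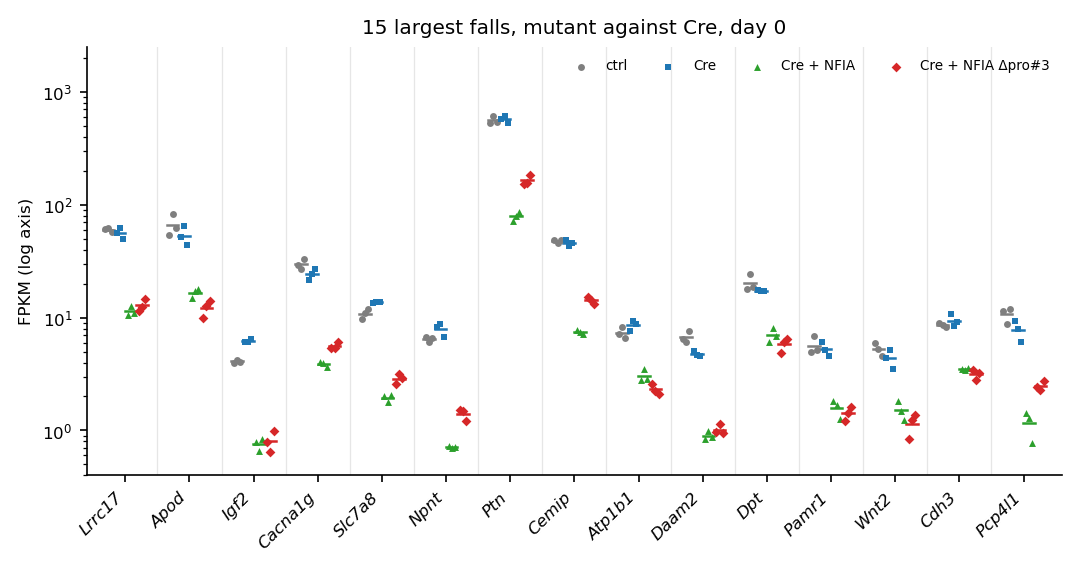
The 15 genes with the largest fall are on the x axis and FPKM on a logarithmic y axis; each point is 1 library, horizontal bars are group means of 3 libraries, and colours and shapes mark the 4 groups of day 0. In all 15 genes the 3 mutant libraries lie below the 3 Cre libraries, which was a condition of their choice. Ptn, for instance, lies at 153 to 184 against 533 to 612 FPKM.

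A further 33 genes fell between 2-fold and 3-fold. Dpt, the matrix protein dermatopontin, was at 5.8 ± 0.87 FPKM in the mutant libraries, against 17.3 ± 0.0938 FPKM in Cre (−1.43, adjusted p = 2.62e-06). Svep1, a large adhesion protein, was at 18.5 ± 0.758 against 46.7 ± 1.77 FPKM (−1.29, adjusted p = 3.51e-09). Cadherins were represented by Cdh3, at 3.17 ± 0.333 against 9.4 ± 1.16 FPKM, and by the atypical member Fat4, at 3.68 ± 0.344 against 9.37 ± 0.405 FPKM. Among ligands, Nrg1, which signals to ErbB receptors, was at 15.5 ± 0.9 against 32.9 ± 3.01 FPKM, and the Notch ligand Jag1 at 1.16 ± 0.133 against 3.49 ± 0.574 FPKM. Among receptors and surface enzymes, the angiopoietin receptor Tek was at 2.09 ± 0.287 against 5.22 ± 0.515 FPKM, the aminopeptidase Enpep at 1.49 ± 0.0566 against 4.14 ± 0.504 FPKM and the receptor-like kinase Ptk7 at 23.1 ± 0.795 against 47.2 ± 2.56 FPKM. Atp1b1 (a sodium pump subunit), Daam2 (a formin linked to Wnt signalling), Pamr1 and Pcp4l1 had log2 differences of −1.54, −1.51, −1.37 and −1.32.

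The promoters of these genes were searched for nuclear factor I sites, because members of this family bind DNA through a domain that the mutant keeps. The site searched was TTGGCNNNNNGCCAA (N, any base), and also TTGGCA, an arm of it with a following A, called the single arm here. The search took both strands of the 300 bases around the gene start that RefSeq gives on GRCm38.p6. Of the 27025 promoters in that table, 12 (0.0444%) held the whole site and 4364 (16.1%) the single arm, among them 1145 of the 8838 tested genes with a promoter. Of the 28 genes among the 41 lower ones that had a promoter, 0 held the whole site and 3 (10.7%) the single arm, and of 22 among the 28 higher ones 0 held either. The 3 genes with an arm were Enpep, Daam2 and Bend5, and their promoters are shown for that reason, written 5′ to 3′ on the strand of the gene, with the arm, read on either strand, in capitals. A match of letters is not a bound site, and sequence outside this window was not searched.
Enpep, chr3:129332700-129332999, minus strand: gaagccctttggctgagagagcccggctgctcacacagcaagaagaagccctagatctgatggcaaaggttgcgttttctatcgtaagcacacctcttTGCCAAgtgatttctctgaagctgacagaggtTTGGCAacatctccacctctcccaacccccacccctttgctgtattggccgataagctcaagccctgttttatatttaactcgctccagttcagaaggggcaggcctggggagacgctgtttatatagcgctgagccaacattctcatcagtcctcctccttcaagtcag
Daam2, chr17:49564288-49564587, minus strand: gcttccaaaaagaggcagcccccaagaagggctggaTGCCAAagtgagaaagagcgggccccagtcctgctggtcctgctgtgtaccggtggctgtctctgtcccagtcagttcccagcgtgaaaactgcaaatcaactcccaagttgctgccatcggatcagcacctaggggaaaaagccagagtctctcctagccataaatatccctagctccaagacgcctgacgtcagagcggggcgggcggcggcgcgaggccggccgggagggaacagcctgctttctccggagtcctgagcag
Bend5, chr4:111414756-111415055, plus strand: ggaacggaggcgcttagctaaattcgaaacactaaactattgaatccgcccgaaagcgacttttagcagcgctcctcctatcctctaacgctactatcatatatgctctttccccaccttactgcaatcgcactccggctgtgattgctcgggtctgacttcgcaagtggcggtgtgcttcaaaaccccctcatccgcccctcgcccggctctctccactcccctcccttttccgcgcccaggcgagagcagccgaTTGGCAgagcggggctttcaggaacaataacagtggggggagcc
Enpep held the arm at 2 places and the others at 1 place. Of the 3 genes Bend5 had the lowest level, at 0, 0.171 and 0.287 FPKM in the mutant libraries, against 1.44, 1.15 and 1.51 FPKM in Cre (−1.04, adjusted p = 0.000143). Bend5 was counted with 0 to 7 reads in the mutant libraries, at or near the floor, and met the filter through the Cre libraries alone.

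The rises at this size were fewer, and several were spread widely among the Cre libraries. Besides Nfia, 2 genes rose at least 3-fold. Fxyd5, which encodes dysadherin, a regulator of the sodium pump (chr7:31817741-31827500, minus strand), was read at 10.3, 9.75 and 7.72 FPKM in the mutant libraries, against 2.3, 2.38 and 1.6 FPKM in Cre (1.73 ± 0.17, adjusted p = 1.07e-05). Scand1 (chr2:156137583-156138440, minus strand) was at 17, 20.8 and 20.7 FPKM with the mutant but at 1.29, 9.19 and 7.58 FPKM in Cre, so that Cre replicate 1 lay far below the other Cre libraries (1.80 ± 0.41, adjusted p = 0.00651). Without that library the difference of Scand1 was 1.13 and no longer 3-fold. Lgals3, the gene of the secreted lectin galectin-3, had little spread, at 114, 108 and 115 FPKM in the mutant libraries, against 35.4, 43.2 and 41.5 FPKM in Cre (1.47 ± 0.07, adjusted p = 7.48e-09). Foxf2, a mesenchymal forkhead factor, was at 2.58, 3.54 and 2.95 against 0.79, 0.328 and 0.317 FPKM, and Orm3, an acute phase gene, at 5.19, 2.21 and 3.04 against 0.891, 0.167 and 0.648 FPKM (adjusted p = 9.09e-06 and 0.000357). AA467197 was the lowest of the 15 largest rises, with at most 1 read in a Cre library and 11 to 15 reads in the mutant libraries, so its fold rests on values under the floor in Cre.

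In Foxf2 and Orm3 Cre replicate 1 was the highest Cre library, whereas in the next 7 genes described it was the lowest. Cebpd was at 60.2, 62.3 and 59.6 FPKM in the mutant libraries, against 14.2, 27.4 and 29.4 FPKM in Cre (1.39 ± 0.20, adjusted p = 0.000238). Cebpb was at 38.4, 35.3 and 35.6 against 11, 15.2 and 19.8 FPKM (1.23 ± 0.18, adjusted p = 0.000269). Both encode C/EBP factors of early adipogenesis, and an absence of overlap between the groups was a condition of the choice of both. Jund, an AP-1 subunit, was at 20.3, 22.3 and 19.5 against 4.86, 10.4 and 8.87 FPKM. Gdf15, a stress-responsive cytokine of the TGF-β superfamily, was at 14.6, 13.5 and 13 against 2.55, 6.49 and 7.77 FPKM. Hspa1b, an inducible heat shock protein gene, was at 37.4, 33.8 and 39.6 against 10.7, 17.9 and 18.2 FPKM, and the histone gene H2afj at 15.7, 16.2 and 16.2 against 4.04, 7.08 and 6.65 FPKM. Without Cre replicate 1 the log2 differences were 1.07 for Cebpd, 1.025 for Cebpb, 1.03 for Jund, 0.86 for Gdf15, 0.99 for Hspa1b and 1.11 for H2afj, and all 6 still passed. Prr7 was at 7.08, 6.88 and 7.83 against 1.01, 2.85 and 2.58 FPKM, with the same library lowest.

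**Figure D3:**
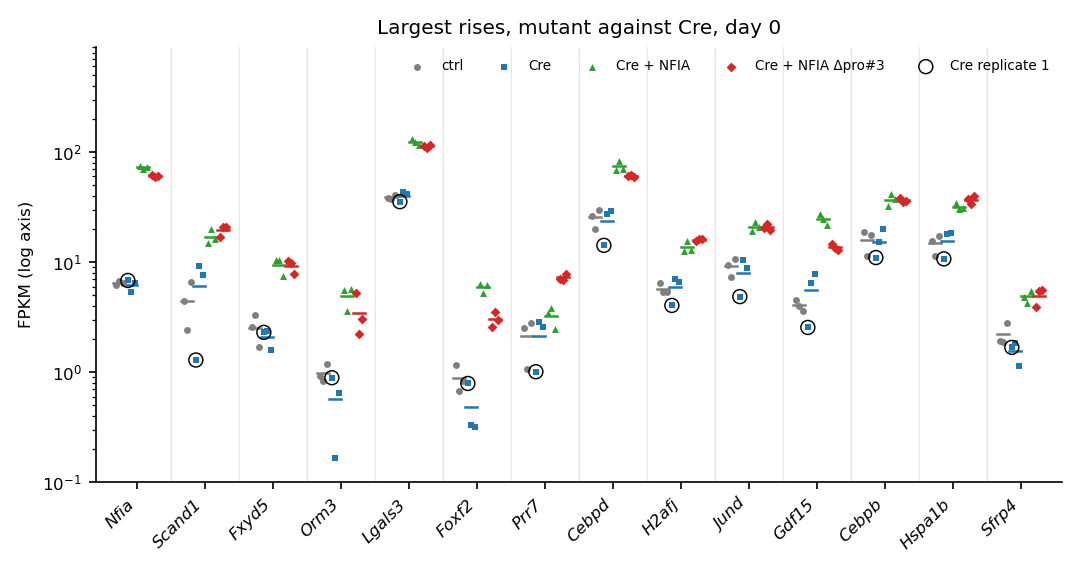
The largest rises are on the x axis (AA467197, at 0 FPKM in 1 Cre library, is not drawn) and FPKM on a logarithmic y axis; points are libraries, bars are means of 3, colours and shapes mark the 4 groups of day 0, and rings mark Cre replicate 1. For Lgals3 the Cre libraries lie together at 35.4 to 43.2 FPKM, whereas for Scand1, Prr7, Cebpd, Jund and Gdf15 the ringed library lies well below the other Cre libraries.

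Cre replicate 1 was the lowest Cre library in 17 of the 28 genes that rose at least 2-fold, and replicates 2 and 3 in 5 and 6. Among the 41 genes that fell at least 2-fold, replicates 1, 2 and 3 were the highest Cre library in 15, 16 and 10. The shares over all genes tested were not computed. Genes that rose at least 2-fold were shorter and richer in G and C than all genes tested, with a median length of 1464 bases and a median GC content of 54.9%, beside 3003 bases and 51.0% for all genes and 3130 bases and 51.0% for those that fell at least 2-fold. With the genes cut into 5 equal classes by GC content (of GENCODE vM1 transcripts), in the most GC-rich class the median deviation from the day 0 mean was −0.07 in Cre replicate 1, 0.05 and 0.10 in the other Cre libraries and 0.05 to 0.08 in the mutant libraries, on the log2 scale. With reads thinned to the smallest library of day 0, 28 genes rose and 42 fell at least 2-fold. These held 24 of the 28 rises and 38 of the 41 falls. The part of GC content and length in these rises was not tested. Without Cre replicate 1, 30 genes rose and 41 fell at least 2-fold, and these held 21 of the 28 rises and 36 of the 41 falls. Without Cre replicate 3, 44 rose and 44 fell, and these held 25 and 39 of them. Rpl34, a ribosomal protein gene, was counted with 1 to 15 reads in the Cre libraries and overlapped between the groups, at 2.68, 2.72 and 2.73 FPKM in the mutant libraries, against 0.143, 2.82 and 0.363 FPKM in Cre.

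Among the other rises of at least 2-fold was Saa3, an acute phase serum amyloid gene and the most abundant of the rises, at 1280, 1200 and 967 FPKM in the mutant libraries, against 582, 459 and 610 FPKM in Cre (1.06, adjusted p = 0.000182). Sod3, the extracellular superoxide dismutase, was at 66.7 ± 6.89 against 31.5 ± 3.87 FPKM, and Uck2, a uridine-cytidine kinase, at 32.1 ± 1.89 against 15.1 ± 1.12 FPKM. Kdr, a VEGF receptor, was at 3.17, 3.26 and 3.25 against 0.939, 1.07 and 0.965 FPKM (1.09, adjusted p = 2.2e-05), and Itgb7, an integrin subunit, at 2.97, 2.8 and 2.46 against 0.773, 0.725 and 0.702 FPKM (1.11, adjusted p = 5.3e-06). Kdr and Tek, both used as endothelial markers, thus moved in opposite directions. Sfrp4, a secreted Wnt antagonist, was at 4.97 ± 0.95 against 1.55 ± 0.367 FPKM (1.22, adjusted p = 7.01e-05), and Gpr39, a zinc-sensing receptor, at 4.2 ± 0.184 against 1.53 ± 0.0214 FPKM.

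Gene lists were then described by the number of tested members that passed, beside 11.2% higher and 9.97% lower over all genes tested and an all-gene median of 0.014. Adipogenic regulators moved in both directions. Of 18 tested, 4 were higher (Cebpb, Cebpd, Stat5a and Stat5b) and 5 lower (Cebpa, Egr2, Ebf2, Ebf1 and Rxra), and the list median was −0.05. Cebpa, a driver of terminal differentiation, was at 5.68, 4.72 and 5.34 FPKM in the mutant libraries, against 7.79, 9.65 and 8.34 FPKM in Cre (−0.62 ± 0.10, adjusted p = 0.000714). Ebf2, a marker of beige and brown precursors, was at 2.41, 2.12 and 2.37 against 4.17, 3.69 and 3.26 FPKM (−0.51 ± 0.10, adjusted p = 0.00268). Pparg, the master regulator of adipogenesis, was at 2.52, 3.12 and 2.39 FPKM in the mutant libraries, against 3.35, 3.01 and 2.16 FPKM in Cre, overlapping values that did not pass (adjusted p = 0.836). Zfp423 (0.953 ± 0.185 against 0.943 ± 0.122 FPKM) and Prdm16 (1.62 ± 0.121 against 1.84 ± 0.159 FPKM) did not pass either, with adjusted p = 0.981 and 0.447, and Klf5 was too low to be tested.

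Of 13 factors known to hold adipogenesis back, 2 were higher and 4 lower (median −0.12). Dlk1, the precursor marker also called Pref-1, was at 0.7, 0.643 and 0.618 FPKM in the mutant libraries, against 1.82, 3.33 and 2.68 FPKM in Cre (−1.11 ± 0.15, adjusted p = 0.000123). Zfp521, an antagonist of Ebf factors, was at 7.54 ± 0.28 against 12.1 ± 1.03 FPKM (−0.61, adjusted p = 0.000162). Wnt10b, an inhibitory Wnt ligand, went the other way, at 2.63, 3.18 and 2.88 against 1.15, 0.871 and 1.85 FPKM (0.79 ± 0.14, adjusted p = 0.00121). Of 11 adipocyte genes tested, 4 were higher and 1 lower (median 0.14), and 13 more were below the filter, Adipoq and Plin1 among them. Fabp4, the fatty acid carrier, was at 22.3, 30.4 and 26.3 FPKM in the mutant libraries, against 18.4, 9.3 and 13.2 FPKM in Cre (0.94 ± 0.18, adjusted p = 0.00177). Lpl, the lipoprotein lipase, was the one that fell, at 40.3 ± 3.34 against 64.2 ± 5.16 FPKM (−0.66, adjusted p = 3.79e-05). The number of adipocyte genes that passed as higher was 2 without mutant replicate 1 or 2 and 1 when all 24 libraries were fitted. Of 16 thermogenic genes 4 could be tested, and by limma 0 passed, 1 had an unadjusted p under 0.05, and 0 passed in voom on recovered reads. Without Cre replicate 1 Tbx1 passed as lower (−0.259, adjusted p = 0.0298), and without Cre replicate 3 Cox7a1 passed as higher (1.215, adjusted p = 0.00623). Ucp1, the uncoupling protein of brown fat, had no read in the 6 libraries. Of 29 skeletal muscle genes 26 were below the filter, Myod1 was at 0 FPKM in all 6 libraries, and of the 3 tested 0 passed by limma, at an unadjusted p under 0.05 or in voom.

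Matrix genes that passed were mostly lower with the mutant. Of 18 collagen chains tested, 11 were lower and 0 higher by limma (median −0.316), and 0 were higher at an unadjusted p under 0.05 or in voom. Without Cre replicate 3, 9 were lower and 1, Col5a3, was higher (0.355, adjusted p = 0.0324), and the median was −0.233. Col6a1, a chain of microfibrillar collagen, was at 561, 536 and 566 against 757, 779 and 789 FPKM (−0.48 ± 0.06, adjusted p = 7.83e-05), Col1a1 fell by 0.40 on the log2 scale (adjusted p = 0.026), and Col27a1 was at 7.39 ± 0.567 against 13.3 ± 3.05 FPKM. Small leucine-rich proteoglycans, which bind collagen fibrils, had 7 of 8 members lower and 0 higher (limma, with 0 higher also at an unadjusted p under 0.05 and in voom; median −0.571). Bgn, biglycan, was the most abundant of them at 652, 649 and 633 against 896, 867 and 882 FPKM (−0.45 ± 0.05, adjusted p = 1.26e-05), and Fmod, fibromodulin, was at 2.77, 2.63 and 2.41 against 6.02, 6.29 and 6.05 FPKM (−0.98 ± 0.08, adjusted p = 2.19e-06). Of these proteoglycans 4 passed as lower without Cre replicate 2, mutant replicate 1 or mutant replicate 2. Of 44 matrix glycoproteins, 22 were lower and 10 higher (median −0.185), with 6 higher after quantile normalization or when all 24 libraries were fitted. Matn2, matrilin-2, was at 22.7 ± 1.13 against 44.5 ± 1.14 FPKM, Fbln5, fibulin-5, at 7.87 ± 0.162 against 15.7 ± 0.0563 FPKM, and Mfap5, a microfibril protein, at 2.26 ± 0.649 against 5.99 ± 1.03 FPKM. Loxl4, a collagen cross-linker, was higher, at 21.3 ± 0.988 against 11 ± 1.06 FPKM (0.89, adjusted p = 4.75e-06).

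Matrix proteases and their inhibitors had 20 of 32 members lower and 2 higher (median −0.265). Plau, urokinase, was at 26.2, 29 and 25.6 FPKM in the mutant libraries, against 52.2, 53.5 and 47.3 FPKM in Cre (−0.90 ± 0.09, adjusted p = 7.01e-06). Adamts12 was at 1.71 ± 0.198 against 4 ± 0.39 FPKM, Ctsk, cathepsin K, at 4.72 ± 0.683 against 9.26 ± 0.971 FPKM, and Mmp9, gelatinase B, at 0.329 ± 0.179 against 1.58 ± 0.155 FPKM. The contractile genes of smooth muscle had 9 of 17 members lower and 0 higher (limma, with 0 higher also at an unadjusted p under 0.05 and in voom; median −0.227). Without Cre replicate 1, 13 were lower and the median was −0.374. Myl9, a myosin light chain, was at 21.6, 18.5 and 19 against 37.7, 39.2 and 38.3 FPKM (−0.93 ± 0.10, adjusted p = 2.43e-05), and Cnn2, a calponin, at 158, 148 and 170 against 238, 259 and 247 FPKM (−0.64 ± 0.07, adjusted p = 1.58e-05). Mural markers were also lower in sum, as given above, and their part in this fall was not tested. The medians of collagens, proteoglycans, proteases and contractile genes were below 0 under median-of-ratios and quantile scaling too.

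Genes of Wnt and IGF signalling were among the largest falls. Of 20 Wnt genes tested, 9 were lower and 3 higher (median −0.188, or −0.294 without Cre replicate 1), and 6 of these changed at least 2-fold. Sfrp2, a secreted frizzled-related protein, was at 216, 212 and 220 FPKM in the mutant libraries, against 491, 540 and 554 FPKM in Cre (−1.28 ± 0.06, adjusted p = 4.13e-09), and its relative Sfrp1 had a mean of 99.4 against 189 FPKM (log2 difference −0.92, adjusted p = 6.7e-08). The ligand Wnt2 was at 0.834, 1.23 and 1.37 against 4.42, 5.2 and 3.49 FPKM. The R-spondin receptor Lgr5 was at 0.379 ± 0.115 against 2.14 ± 0.408 FPKM and the R-spondin Rspo2 at 1.92 ± 0.412 against 5.45 ± 0.387 FPKM, whereas Axin2 and Lef1, common targets of the pathway, were below the filter. The list thus held inhibitors, ligands and a receptor that fell, beside an inhibitor, Sfrp4, and a ligand, Wnt10b (described above), that rose. Of 14 genes of the IGF system, 5 were lower and 2 higher (median −0.071). Igfbp3, a binding protein of IGFs, was at 11.8, 11.9 and 14.1 against 27.5, 28.8 and 26.6 FPKM (−1.08 ± 0.08, adjusted p = 1.2e-06), and Igfbp6, which binds IGF-II, was higher at 160, 152 and 152 against 68.7, 90.6 and 92.1 FPKM (0.89 ± 0.14, adjusted p = 0.000504).

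Heparin-binding growth factors and their receptors had 10 members higher and 8 lower of 30 (median −0.022), with 6 higher without Cre replicate 2 or mutant replicate 1 and a median of 0.094 without Cre replicate 3. Beside Ptn, the syndecan Sdc1 was higher at 124, 126 and 115 against 63.8, 65 and 67.9 FPKM (0.88 ± 0.06, adjusted p = 5.22e-07), and the receptor Fgfr2 was lower at 4.98 ± 0.318 against 9.57 ± 0.248 FPKM. In the BMP and TGF-β list 4 of 29 members were higher and 6 lower (median −0.064), among them Id1, a target of BMP signals, at 67.3 ± 6.32 against 36.6 ± 8.25 FPKM, and the activin subunit Inhbb at 10.1 ± 0.152 against 18.4 ± 1.29 FPKM. Among 14 surface markers of precursors, 5 were lower and 2 higher (median −0.102). Pdgfra was at 50, 48.1 and 51.8 against 78, 69.9 and 74.4 FPKM (−0.56 ± 0.06, adjusted p = 1.47e-05), F3, tissue factor, at 85 ± 4.71 against 137 ± 4.35 FPKM, and Vcam1, an adhesion receptor, at 110 ± 4.56 against 169 ± 12.8 FPKM. Of 21 chemokines and cytokines 5 were higher and 6 lower (median 0.06), with Cx3cl1 at 15.2, 14.4 and 15.4 against 29.3, 29.6 and 28.2 FPKM (−0.91 ± 0.07, adjusted p = 7.52e-07). Without mutant replicate 1 or 3 the number higher was 3, and the median was −0.016 without mutant replicate 3. Interferon-stimulated genes had 7 of 26 members lower and 1 higher (median −0.135), with Mx1, an antiviral GTPase, at 43.5 ± 4.03 against 82.6 ± 5.3 FPKM (−0.91, adjusted p = 0.000138).

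Of 27 cell cycle genes tested, 14 were higher, 13 did not pass and 0 were lower by limma (median 0.240), and 0 were lower at an unadjusted p under 0.05 or in voom. Cdc20, an activator of the anaphase-promoting complex, was at 77.1, 84.3 and 79.8 FPKM in the mutant libraries, against 53.5, 53.5 and 60.5 FPKM in Cre (0.52 ± 0.07, adjusted p = 0.000196). Rrm2, a subunit of ribonucleotide reductase, was at 56.1, 55.2 and 54 against 36.5, 42.2 and 37.5 FPKM (0.50 ± 0.06, adjusted p = 6.8e-05). The number higher was 9 after quantile normalization, 9 without Cre replicate 2, 8 without Cre replicate 3, and 9, 7 and 8 without mutant replicate 1, 2 and 3. Of 16 p53 target genes 3 were higher, such as Bax at 168 ± 2.93 against 133 ± 5.6 FPKM, and 1, Sesn1, was lower (median 0.08), though it did not pass without Cre replicate 1 or 3 or mutant replicate 1 or 3 (adjusted p = 0.0623 to 0.0845). Immediate-early and heat shock genes split, with 4 of 17 higher and 3 lower (median 0.069). Egr1, an early growth response factor, was at 14.4 ± 1.83 against 24.6 ± 2.83 FPKM (−0.74, adjusted p = 0.000193), whereas Junb, an AP-1 subunit, was at 102, 101 and 100 against 31.7, 60 and 67.1 FPKM, again with Cre replicate 1 the lowest.

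**Figure D4:**
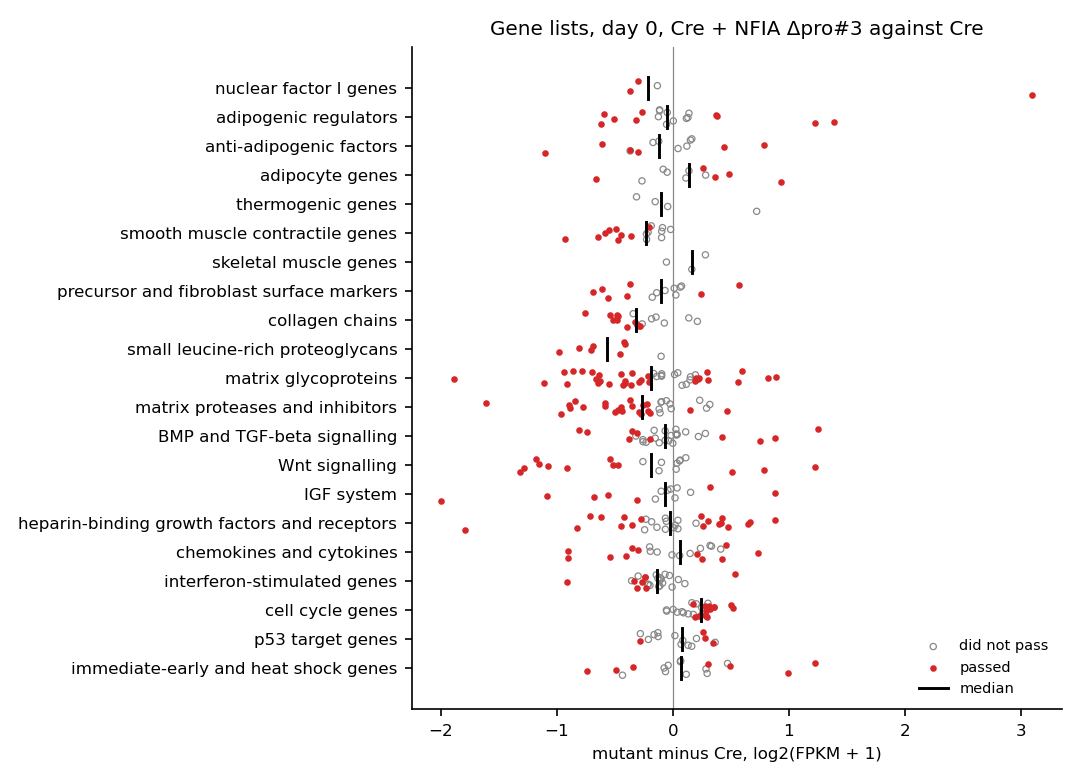
Each row is a gene list and each point a tested member, placed on the x axis by its difference mutant minus Cre at day 0 on the log2(FPKM + 1) scale; filled points passed at an adjusted p under 0.05, open points did not, and the vertical bar is the list's median. Collagens and small leucine-rich proteoglycans lie mostly below 0 (medians −0.316 and −0.571), and cell cycle genes mostly above 0 (median 0.240).

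The mutant was then set beside full-length NFIA at day 0. In Cre + NFIA against Cre 3369 genes passed (30.2%) and 53 reached 3-fold (0.475%). That comparison shares the Cre libraries with the mutant's, so the values are given side by side and their likeness was not tested. In the direct comparison of the mutant with full-length NFIA 1208 genes passed (10.8%), of which 14 reached 3-fold (0.125%). Genes entered these comparisons by their level in the mutant and Cre libraries, so genes expressed only in other groups were left out. With no filter on low values the 14 were 22. The 41 genes that fell at least 2-fold with the mutant had a median difference from Cre of −1.15, and with full-length NFIA the median of the same genes was −1.20. In the direct test 20 of the 41 passed, 10 with the mutant higher and 10 with the mutant lower. The 28 that rose at least 2-fold had medians of 1.22 and 1.10, and 8 of them passed in the direct test, 4 in each direction. These genes were chosen by their values in the same mutant libraries, so the counts are a description.

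Some genes fell further with full-length NFIA. Ptn was at 79.2 ± 7.33 FPKM with full-length NFIA, 165 ± 16.7 FPKM in the mutant libraries, against 573 ± 39.7 FPKM in Cre, and the direct difference, mutant minus full-length, was 1.05 (adjusted p = 1.29e-06). Cemip was at 7.47 ± 0.271, 14.3 ± 0.923 and 45.8 ± 3.05 FPKM in these groups (direct difference 0.85, adjusted p = 9.32e-07). Igfbp3 was at 5.79 ± 0.535, 12.6 ± 1.29 and 27.7 ± 1.13 FPKM (direct difference 1.00, adjusted p = 1.55e-06). For each of the 3 genes the mutant group lay between the other groups, and F3 had the same order at 41.7 ± 1.6, 85 ± 4.71 and 137 ± 4.35 FPKM. Lrrc17 and Igf2 were at 11.4 ± 1.1 and 0.762 ± 0.0972 FPKM with full-length NFIA and did not pass in the direct test (0.15, adjusted p = 0.383, and 0.04, adjusted p = 0.883). Cebpb, at 37 ± 4.31 FPKM with full-length NFIA, did not pass either (−0.02, adjusted p = 0.976).

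Other genes were lower with the mutant than in both other groups. Sfrp2 was at 216 ± 4.21 FPKM in the mutant, 460 ± 13.2 FPKM in the full-length group and 528 ± 33.1 FPKM in Cre (direct difference −1.09, adjusted p = 2.06e-08). Cx3cl1 was at 15 ± 0.526, 27.3 ± 0.543 and 29 ± 0.751 FPKM in that order (direct difference −0.82, adjusted p = 1.24e-06). Enpep and Tek were at 4.69 ± 0.488 and 5.85 ± 0.537 FPKM with full-length NFIA (direct differences −1.19 and −1.15, adjusted p = 8.46e-07 and 3.94e-06), and Mgp, matrix Gla protein, was at 0.514 ± 0.33, 2.36 ± 0.112 and 2.59 ± 0.487 FPKM. Mgp was counted with 2 to 7 reads in the mutant libraries, so its level there lies near the floor. A further set was higher with full-length NFIA than in Cre but lower with the mutant. Cebpa was at 20.6 ± 1.18 FPKM with full-length NFIA, 8.6 ± 0.955 FPKM in Cre and 5.25 ± 0.489 FPKM with the mutant (direct difference −1.79, adjusted p = 4.77e-08). Cd34, a sialomucin of precursor cells, was at 229 ± 14.2, 99 ± 11.8 and 74.8 ± 5.32 FPKM, and the proteoglycan Prelp at 33.3 ± 3.43, 12.2 ± 2.46 and 7.07 ± 0.551 FPKM, with full-length NFIA above Cre by 1.21 and 1.396 on the log2 scale. Cd34 did not pass as lower than Cre without Cre replicate 2 or mutant replicate 1 (adjusted p = 0.0668 and 0.0639). Pparg was at 6.21 ± 1.21 FPKM with full-length NFIA, while the mutant held 2.68 ± 0.387 FPKM (direct difference −0.96, adjusted p = 0.000422).

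Genes higher with the mutant than with full-length NFIA included Sdc1 (122 ± 5.72 against 84.9 ± 5.7 FPKM, adjusted p = 5.11e-05), Itgb7 (2.74 ± 0.26 against 0.955 ± 0.0739 FPKM, adjusted p = 1.72e-05) and the chemokine Ccl8 (43 ± 6.48 against 13.3 ± 1.05 FPKM, adjusted p = 2.87e-05). The 14 genes that differed at least 3-fold were Ccl8, Col24a1 and Prl2c2, higher with the mutant, and Adam33, Agt, Ccnd1, Cd34, Cebpa, Clec3b, Clu, Gfra2, Prelp, Pxdc1 and Timp3, lower with the mutant. The largest of these differences was −3.66 for Clec3b, the gene of tetranectin. Sod3 was higher than in Cre with both proteins, at 66.7 ± 6.89 FPKM in the mutant and 133 ± 4.45 FPKM in the full-length group. The study describes the expression of both transgenes as similar, from Western blot and RT-qPCR. Because the mutant libraries held less Nfia RNA than the full-length libraries in these data, the deletion and the amount of transgene RNA cannot be told apart here.

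**Figure D5:**
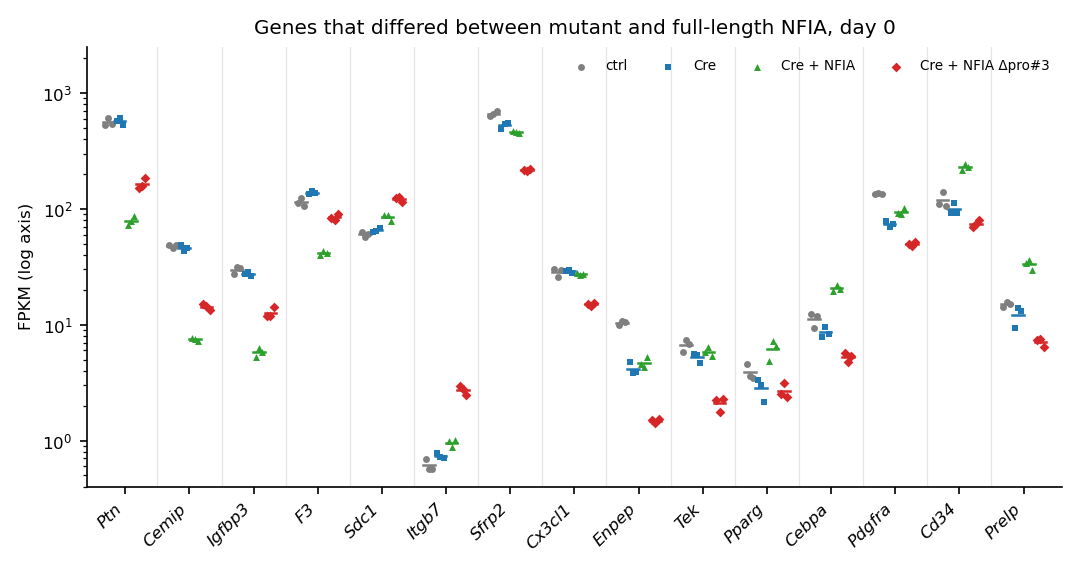
The x axis holds 15 genes that passed in the direct test of mutant against full-length NFIA, chosen after their values were seen, and the y axis is FPKM on a logarithmic scale; points are libraries, bars are means of 3, and colours and shapes mark the 4 groups of day 0. For Ptn, Cemip and Igfbp3 the mutant lies between Cre and Cre + NFIA, for Sfrp2, Cx3cl1, Enpep and Tek it lies below both, and for Cebpa, Cd34 and Prelp Cre lies between the mutant and Cre + NFIA.

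The ctrl libraries gave another reference that does not use the Cre libraries. Cells called ctrl received no Cre, so the mutant protein, a second infection and Cre cannot be told apart in it. Against ctrl 3907 genes passed (35.0%) and 22 reached 3-fold (0.197%), 2 higher and 20 lower. In ctrl, Ptn was at 559 ± 42.6, Lrrc17 at 60.2 ± 2.93, Lgals3 at 38.8 ± 1.82 and Cemip at 47.9 ± 1.86 FPKM. The differences of the mutant from ctrl were −1.76 for Ptn, −2.15 for Lrrc17, 1.51 for Lgals3 and −1.68 for Cemip. For the genes in which Cre replicate 1 stood apart, ctrl held 25.4 ± 4.86 FPKM of Cebpd, 15.9 ± 3.96 FPKM of Cebpb and 4.47 ± 2.05 FPKM of Scand1, and the mutant was higher by 1.24, 1.17 and 1.97 on the log2 scale (adjusted p = 0.000316, 0.000214 and 0.00213). The ctrl libraries were also spread in these genes, with ctrl replicate 2 the lowest at 20.2, 11.4 and 2.43 FPKM. Pdgfra was at 136 ± 2.42 FPKM and Enpep at 10.4 ± 0.415 FPKM in ctrl, against 74.1 ± 4.02 and 4.14 ± 0.504 FPKM in Cre. In the most GC-rich class of genes ctrl replicate 2 had a median deviation of −0.22 on the log2 scale.

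Whether the differences at day 0 were the same after differentiation was tested by an interaction, the difference mutant minus Cre at day 7 less that at day 0, over all 24 libraries. It passed for 2055 genes (18.4%) and 36 reached 3-fold (0.322%), 2 with the difference more positive at day 7 and 34 with it more negative. The genes tested were those that met the filter in the 6 libraries of day 0, so genes expressed only at day 7 were left out. With no filter on low values 86 reached 3-fold, 2 more positive and 84 more negative. The count of 36 was 21 without Cre replicate 2 of day 7, 57 without Cre replicate 3 of day 7 and 23 without mutant replicate 1 of day 7. Cells at day 7 had received the differentiation cocktail, so time and state cannot be told apart. The genes below were chosen by their values at day 0, which the interaction subtracts, so a value that brings the difference nearer to 0 is in part set by that choice. Ptn was still lower with the mutant at day 7 but by less, at 363 ± 15 against 512 ± 34.5 FPKM (interaction 1.30, adjusted p = 3.31e-07). Cemip was at 5.95 ± 0.289 and 5.68 ± 1.15 FPKM at day 7 (interaction 1.68, adjusted p = 1.55e-07). Igf2 kept the larger part of its difference, at 2.1 ± 0.0936 against 7.66 ± 1.44 FPKM (interaction 0.52, adjusted p = 0.0164, or 0.0502 without mutant replicate 2 of day 0 and 0.0665 without Cre replicate 2 of day 7). Fabp4, which was higher with the mutant at day 0, was at 1040 ± 477 against 4960 ± 1880 FPKM at day 7 (interaction −3.24, adjusted p = 9.64e-06). Pparg, for which no difference was detected at day 0, was at 9.02 ± 2.52 against 22.4 ± 5.55 FPKM at day 7 (interaction −1.18, adjusted p = 0.00147). Nfia did not pass the interaction test (0.11, adjusted p = 0.506), at 102 ± 8.44 and 10.1 ± 0.588 FPKM at day 7.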

How the data were processed

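RNA-seq was made from mouse ingSVF cells at day 0 and day 7. Per the study's methods, the authors used a stranded mRNA kit, aligned reads with STAR 2.5.3a to mm9 and counted uniquely mapped reads per gene on the matching strand. The deposited unit is FPKM, computed by the authors from these counts. No counts were used as the main unit, but FPKM times length gave whole reads for 100% of values (tolerance 0.05 reads), at 7.73 to 12.77 M reads in the 6 libraries compared.

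The test was limma 3.58.1 (R 4.3.3) with a mean trend on log2(FPKM + 1), fitted on the 12 libraries of day 0, or on all 24 for the interaction, with Benjamini-Hochberg adjustment over 11167 genes. Genes had at least 200 bases and at least 1 FPKM in at least 3 of the 6 libraries. Passed means an adjusted p under 0.05. Of the listed symbols 26 are date-like and were not named (16 tested). The samples were grouped by their labels. Named genes were the 15 largest rises and the 15 largest falls that passed without overlap between the groups, regulators the study names and up to 5 of each list. Genes named beyond that rule, the 2-fold genes and those of the direct comparison, were chosen after their values were seen. The members and lists were chosen with earlier results of these data known. The scripts were tested on simulated data. Alternatives were pseudocounts, filters, scalings, fits, left-out libraries, a replicate block, voom on recovered reads, 2-fold and no fold threshold and, chosen after seeing the data, thinned reads, the same alternatives for the 2-fold counts, the adjusted-p counts and the lists, and left-out libraries for single genes in the interaction.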

Additional observations from a re-analysis of the deposited data

Results flagged for a closer look

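The difference mutant minus Cre at day 7 less that at day 0 was tested by the interaction in limma over 24 libraries. At an adjusted p under 0.05 it passed for 2055 of the 11167 genes tested (18.4%), and 36 of these reached 3-fold. Of the 15 largest rises at day 0, 10 passed, and of the 15 largest falls 15. These genes were chosen for their differences at day 0, which the interaction subtracts, so movement towards 0 is in part built into the choice, and the counts are a description. The values are on the log2(FPKM + 1) scale.

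The 10 rises that passed had negative values, −2.10 for Scand1, −1.02 for Lgals3, −0.73 for Foxf2, −1.29 for Prr7, −1.06 for Cebpd and −1.30 for the histone gene H2afj. The AP-1 subunit gene Jund had −1.20, Gdf15 −1.15, Cebpb −1.31 and the heat shock gene Hspa1b −0.80. The other 5 did not pass, with 0.11 for Nfia, 0.33 for Sfrp4, −0.67 for Fxyd5, −0.76 for Orm3 and −0.76 for AA467197. Without Cre replicate 1 of day 0 the values were −1.42 for Scand1, −0.999 for Prr7, −0.74 for Cebpd, −1.085 for H2afj, −0.91 for Jund, −0.75 for Gdf15, −1.10 for Cebpb and −0.57 for Hspa1b. The 10 rises passed with any 1 of the 12 libraries of the mutant and Cre groups left out.

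Among the falls the value was positive. The growth factor genes Ptn and Igf2 had 1.30 and 0.52, the ligand gene Wnt2 1.21, and the secreted or matrix protein genes Lrrc17, Apod, Npnt, Cemip, Dpt and Pamr1 had 0.96, 1.47, 1.13, 1.68, 0.91 and 1.34. For the membrane protein genes Cacna1g, Slc7a8, Atp1b1 and Cdh3 it was 0.81, 1.29, 1.16 and 1.09. Daam2 had 1.06 and Pcp4l1 1.03. Of these 15, Igf2 did not pass without mutant replicate 2 of day 0 (0.458, adjusted p = 0.0502) or Cre replicate 2 of day 7 (0.388, adjusted p = 0.0665), and the other 14 passed with any 1 library left out.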

How the results depend on the processing

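The 11 genes at 3-fold in the mutant against Cre were 36 and 4 with pseudocounts of 0.1 and 5, 42 in voom, 69 at 2-fold and 2362 with no fold threshold. They were 10 to 12 with 1 library left out: Scand1 and Cemip were under 3-fold without Cre replicate 1, and Cemip without mutant replicate 3. The 28 rises and 41 falls of at least 2-fold were 65 and 102 with a pseudocount of 0.1, 10 and 10 with 5, 66 and 106 in voom, 17 and 23 at a mean FPKM of at least 5, and 44 and 44 without Cre replicate 3. The 14 of the direct comparison were 39, 3, 44, 98 and 1208 in the same order, 22 with no filter and 9 at a mean FPKM of at least 5. Its 1208 genes past the adjusted p were 2005 when only the groups compared were fitted and 791 to 954 with 1 library left out (791 and 798 without mutant replicate 1 and 3). For full-length NFIA against Cre the 53 were 116, 11, 125, 212 and 3369, and 32 at a mean FPKM of at least 5. For the mutant against ctrl the 22 were 66, 7, 75, 145 and 3907. For the interaction the 36 were 66, 13, 63, 192 and 2055, 86 with no filter, 21 at a mean FPKM of at least 5 and 21 to 57 with 1 library left out. The cause of these moves was not tested, except that fewer or more genes were tested under the filters (8415 and 16378).

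Pparg and Zfp423, which did not pass, changed sign: Pparg was 0.071 after thinning and −0.188 to 0.044 with 1 library left out, and Zfp423 was −0.008 in voom and −0.07 to 0.061 with 1 library left out. Of 2103 values of 119 named genes under alternatives, 2046 kept their direction and their side of the threshold, 50 values of 12 genes no longer passed, 1 (Cox7a1) newly passed and 6 changed sign. Same-numbered libraries of the mutant and Cre did not deviate together (correlations of −0.065, −0.001 and −0.079), and with a replicate block 11 genes were at 3-fold and 2369 passed. Under other scalings and fits, thinned reads and left-out libraries, list medians near 0 were −0.079 to −0.018 for adipogenic regulators (0.125 at a mean FPKM of at least 5), −0.093 to −0.019 for BMP and TGF-β, −0.099 to −0.046 for IGF, −0.14 to −0.049 for surface markers, −0.062 to 0.094 for heparin-binding factors, −0.016 to 0.128 for chemokines, 0.031 to 0.111 for immediate-early genes and 0.04 to 0.115 for p53 targets. The 2 higher members of the anti-adipogenic, surface marker and IGF lists were 1 to 2, those of the proteases 1 to 3, and the 1 lower p53 target was 0 to 3. Cre replicates 2 and 3 of day 0 were the shallowest libraries (7.73 and 7.99 M reads), which limits genes near 1 FPKM.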
